A study of Danio rerio with 14 samples.

Results

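The circadian clock of the adult zebrafish ventricle was followed here through 10 of its genes: the activators arntl1a and clocka, the period genes per1a, per1b, per2 and per3, the nuclear receptor genes nr1d1, nr1d2a and nr1d2b, and ciarta. They were selected by gene symbol, and all 10 were found among the 39289 features of the deposited count table. RNA-seq had been performed on ventricles of non-transgenic fish (NTG, 3 libraries) and of fish that carry human TMEM43 without a variant (TMEM43-WT, 4 libraries), with the p.P111L variant (TMEM43-P111L, 3 libraries) or with the p.S358L variant (TMEM43-S358L, 4 libraries). TMEM43 encodes a protein of the nuclear envelope, and p.S358L is a known cause of arrhythmogenic cardiomyopathy in humans. Each transgene was fused to eGFP, inserted with the Tol2 transposon and driven by the myl7 promoter, which is active in cardiomyocytes. Whether other cells of the ventricle express it was not tested here. Every library is a pool of ventricles from progeny of F2 incrosses, and the strain is labelled TL1 for all of them.

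All fish were kept at 28 °C under 14 h of light and 10 h of darkness. The labels give an age of 5 months for 7 libraries (NTG replicates 2 and 3, TMEM43-WT replicate 1, TMEM43-P111L replicate 2 and TMEM43-S358L replicates 1, 2 and 3) and of 18 to 21 months for the other 7, whereas the text of the study names 5 months for this experiment. Neither the labels nor the methods state the time of day at which ventricles were taken. Age, the day of dissection and its hour therefore cannot be told apart in any comparison below. Library totals lay between 20621770 and 32418475 reads. Of the cardiomyocyte markers, myl7 was at 10343 to 18939 CPM (reads scaled to the same TMM-adjusted library size) and vmhc at 697 to 1450 CPM in all libraries. The 9 rows of retina, pineal and brain markers, tissues with strong clocks of their own, summed to 1.45 to 5.21 CPM, and rho, opn1mw1 and elavl3 had a median of 0 CPM.

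In vertebrates the clock is a feedback loop of transcription factors. Arntl (Bmal) and Clock proteins form dimers that bind E-boxes and activate the per, cry, nr1d and ciart genes. Per and Cry proteins return to the nucleus and inhibit the dimer, and the Nr1d receptors (Rev-Erb in mammals) repress the arntl genes in competition with the Ror receptors, so that in mammals Nr1d1 and Arntl peak at opposite times of the day. Most peripheral tissues of zebrafish, the heart included, hold clocks that light can set directly, and per2 is induced by light in this species. Tissue was sampled without a stated hour. The levels of these genes may therefore reflect the phase of each pool as well as any effect of genotype or age, and which of these was not tested.

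Levels of different genes were compared as CPM per kb of exon length. In that order the mean over the 14 libraries was 22.0 ± 8.74 (SD, n = 14) for per2, 20.8 ± 9.43 for nr1d2a, 13.7 ± 7.20 for nr1d2b, 11.97 ± 4.39 for arntl1a, 4.17 ± 3.93 for nr1d1, 3.08 ± 2.32 for per1b, 1.52 ± 1.12 for ciarta, 0.260 ± 0.196 for per1a, 0.187 ± 0.139 for per3 and 0.0504 ± 0.0291 for clocka. The ranges over the libraries overlapped for 9 of 9 pairs of neighbours in this order. The depth behind the weakest genes was low: per3 had 3 to 48 reads per library, per1a 9 to 103 and ciarta 18 to 190, against 1183 to 5277 for per2. Counts of nr1d2a and ciarta were not whole in every library, the origin of the fractions was not determined, and the levels of both genes are uncertain to that extent.

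The clock activator arntl1a (chromosome 25, bases 17893784 to 17918860 of GRCz11, minus strand), the partner of Clock in the dimer, reached 27.4, 19.1 and 28.0 CPM in NTG replicates 2, 3 and 4. In TMEM43-WT replicates 1, 4, 5 and 6 it was at 15.01, 29.5, 33.4 and 31.3 CPM. The 3 TMEM43-P111L replicates 2, 3 and 4 were at 10.8, 44.8 and 43.6 CPM, and TMEM43-S358L replicates 1 to 4 at 34.7, 32.98, 17.9 and 44.3 CPM. Thus in each transgenic line a single library, TMEM43-WT replicate 1, TMEM43-P111L replicate 2 and TMEM43-S358L replicate 3, lay well below the others of its line, and all 3 were of 5 months. In TMEM43-WT and TMEM43-P111L this was the only library of 5 months, so the low library and age cannot be told apart there. TMEM43-S358L alone held further libraries of that age, replicates 1 and 2 at 34.7 and 32.98 CPM. clocka (chromosome 20, bases 22068860 to 22176005, plus strand), 1 of 2 zebrafish Clock paralogs, was close to undetected, with 0 to 12 reads per library. It had 0 reads in TMEM43-WT replicate 1 and TMEM43-S358L replicate 3, where the 3 reads that a count of 0 allows correspond to up to 0.171 and 0.135 CPM, and it did not pass the filter on low counts. Its paralog clockb was present at 2.96 to 9.73 CPM.

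nr1d1 (chromosome 3, bases 23488621 to 23496223, plus strand), the zebrafish counterpart of Rev-Erb alpha and a repressor of arntl genes, had the widest variation of all members. It was at 3.67, 13.1 and 35.8 CPM in NTG replicates 2, 3 and 4 and at 26.4, 7.79, 6.21 and 3.11 CPM in TMEM43-WT replicates 1, 4, 5 and 6. In TMEM43-P111L replicates 2, 3 and 4 it was at 23.2, 2.12 and 3.15 CPM, and in TMEM43-S358L replicates 1 to 4 at 5.19, 6.63, 30.9 and 5.30 CPM. Each genotype thus held a library at 23.2 CPM or more beside libraries below 8 CPM, and the ratio of the highest to the lowest library was 9.77 for NTG, 8.52 for TMEM43-WT, 10.98 for TMEM43-P111L and 5.95 for TMEM43-S358L. The SD of log2 CPM within genotypes was 1.46 for nr1d1, above that of 99.0% of all 17437 tested genes and above the median of 0.457 over all of them. Among genes within a like range of levels the median SD was 0.336. Each genotype held libraries of both age groups, so this SD and those of the other members below include any difference of age.

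The Rev-Erb beta copy nr1d2b (chromosome 19, bases 17400261 to 17407462, plus strand) was at 57.6, 112.8 and 53.9 CPM in NTG replicates 2, 3 and 4. TMEM43-WT replicates 1, 4, 5 and 6 gave 76.4, 35.8, 31.5 and 36.9 CPM, TMEM43-P111L replicates 2, 3 and 4 gave 107.8, 19.3 and 21.3 CPM, and TMEM43-S358L replicates 1 to 4 gave 68.8, 55.2, 84.6 and 35.2 CPM. In all 3 transgenic lines the library with the lowest arntl1a had the highest nr1d2b. Its paralog nr1d2a (chromosome 16, bases 50089417 to 50111057, plus strand) did not share this order. It ranged from 87.2 to 134.0 CPM in NTG, from 46.8 to 123.6 CPM in TMEM43-WT, from 22.2 to 81.5 CPM in TMEM43-P111L and from 18.9 to 120.8 CPM in TMEM43-S358L, with the lowest values in TMEM43-S358L replicate 1 and TMEM43-P111L replicate 2. TMEM43-S358L replicate 1 also had the highest summed erythrocyte markers, 6479 CPM over 5 of 5 found against 834 to 3578 CPM in the other libraries. The part of blood cells in the low nr1d2a level was not tested.

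Among the period genes, whose proteins inhibit the activating dimer, per1b (chromosome 7, bases 50822465 to 50846291, plus strand) was at 14.98, 27.6 and 18.2 CPM in NTG replicates 2, 3 and 4. TMEM43-WT replicate 1 stood at 39.5 CPM, while replicates 4, 5 and 6 lay together at 11.7, 11.6 and 11.5 CPM. TMEM43-P111L replicates 2, 3 and 4 were at 39.1, 5.66 and 9.24 CPM and TMEM43-S358L replicates 1 to 4 at 12.3, 18.7, 61.5 and 10.8 CPM. The same 3 libraries of 5 months were thus the highest of their lines. per3 (chromosome 11, bases 39959063 to 40014818, plus strand) followed this order at a far lower level, with 1.65, 1.67 and 2.15 CPM in TMEM43-WT replicate 1, TMEM43-P111L replicate 2 and TMEM43-S358L replicate 3, against 0.148 to 1.47 CPM in the other libraries. per1a (chromosome 10, bases 22811619 to 22831513, minus strand) ranged from 0.378 to 4.62 CPM and was highest in TMEM43-S358L replicate 3.

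The light-inducible period gene per2 (chromosome 2, bases 48309600 to 48375374, minus strand) had the highest level per kb and varied least within genotypes. It was at 125.8, 55.1 and 93.2 CPM in NTG replicates 2, 3 and 4 and at 126.5, 181.3, 138.4 and 96.9 CPM in TMEM43-WT replicates 1, 4, 5 and 6. In TMEM43-P111L replicates 2, 3 and 4 it was at 68.5, 107.3 and 108.7 CPM, and in TMEM43-S358L replicates 1 to 4 at 73.3, 161.5, 236.6 and 125.5 CPM. The groups overlapped, and the SD of log2 CPM within genotypes was 0.54, the smallest of the 9 tested members. It was still above that of 87.6% of genes within a like range of levels, whose median SD was 0.276. Over the 9 tested members this share lay between 81.1% (per1a) and 99.3% (nr1d1). ciarta (chromosome 19, bases 8928434 to 8940081, minus strand), a relative of mammalian Ciart (Chrono), which represses the activating dimer, ranged from 0.742 CPM in TMEM43-S358L replicate 1 to 8.66 CPM in NTG replicate 3. Its level in TMEM43-WT replicate 1, TMEM43-P111L replicate 2 and TMEM43-S358L replicate 3 was 7.85, 7.54 and 6.37 CPM, the highest of each line.

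**Figure D1:**
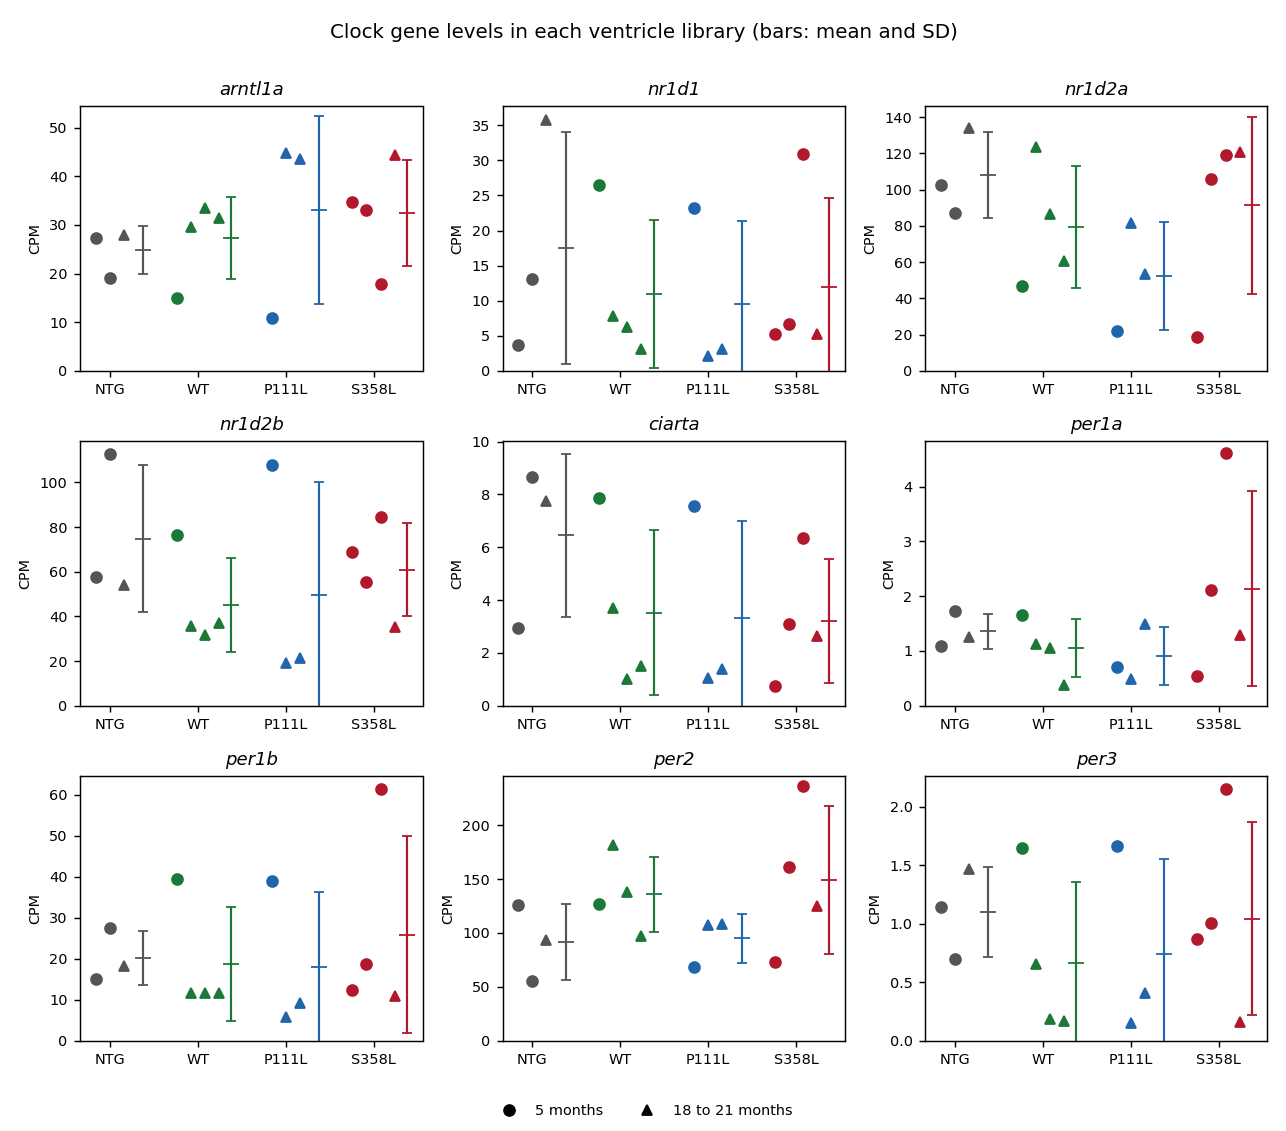
Level of the 9 tested clock genes (CPM, linear axes from 0) in each of the 14 libraries, by genotype, with circles for 5 months and triangles for 18 to 21 months. The bar beside each group is its mean and SD, drawn only above 0, and each transgenic line shows a single 5-month library with low arntl1a (10.8 to 17.9 CPM) and high nr1d1 (23.2 to 30.9 CPM). In TMEM43-WT and TMEM43-P111L it is the only library of 5 months.

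To describe the balance of the 2 limbs of the loop, the log2 ratio of nr1d1 to arntl1a was taken within each library, which does not depend on library size. Whether this ratio reads the clock phase of a pool was not tested. It was -2.87, -0.54 and 0.36 in NTG replicates 2, 3 and 4, and 0.81, -1.91, -2.41 and -3.30 in TMEM43-WT replicates 1, 4, 5 and 6. TMEM43-P111L replicates 2, 3 and 4 were at 1.099, -4.35 and -3.76, and TMEM43-S358L replicates 1 to 4 at -2.72, -2.30, 0.79 and -3.04. The ratio hence spanned 5.45 log2 units over the series, 5.45 of them within TMEM43-P111L, 4.11 within TMEM43-WT, 3.83 within TMEM43-S358L and 3.23 within NTG, while genotype means lay between -2.34 and -1.02. NTG replicate 4, of 21 months, combined the highest nr1d1 of all libraries with arntl1a at the ninth rank from the top. NTG replicate 2 and TMEM43-S358L replicates 1 and 2, although of 5 months, had ratios of -2.87 to -2.30. These lay within the range of the 18 to 21-month libraries, which was -4.35 to 0.36, and -4.35 to -1.91 without NTG replicate 4. NTG replicate 3, also of 5 months, lay within the wider range only.

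The order of libraries was then compared between members. The 4 libraries with the lowest arntl1a were TMEM43-P111L replicate 2, TMEM43-WT replicate 1, TMEM43-S358L replicate 3 and NTG replicate 3. These were also the 4 with the highest per1b and the 4 with the highest nr1d2b, and 3 of them were among the 4 highest for nr1d1, per3, ciarta and per1a. For per2 and nr1d2a the overlap was 1 of 4. All 4 libraries were of 5 months, so these overlaps and age cannot be told apart. The share of all tested genes with such an overlap is not given here, so the counts do not measure an excess. Of the 8 tested cry and bhlhe genes, not all of which need be repressors of the dimer, 3 correlated negatively with arntl1a. The other 5 correlated positively, as described below for cry1bb.

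**Figure D2:**
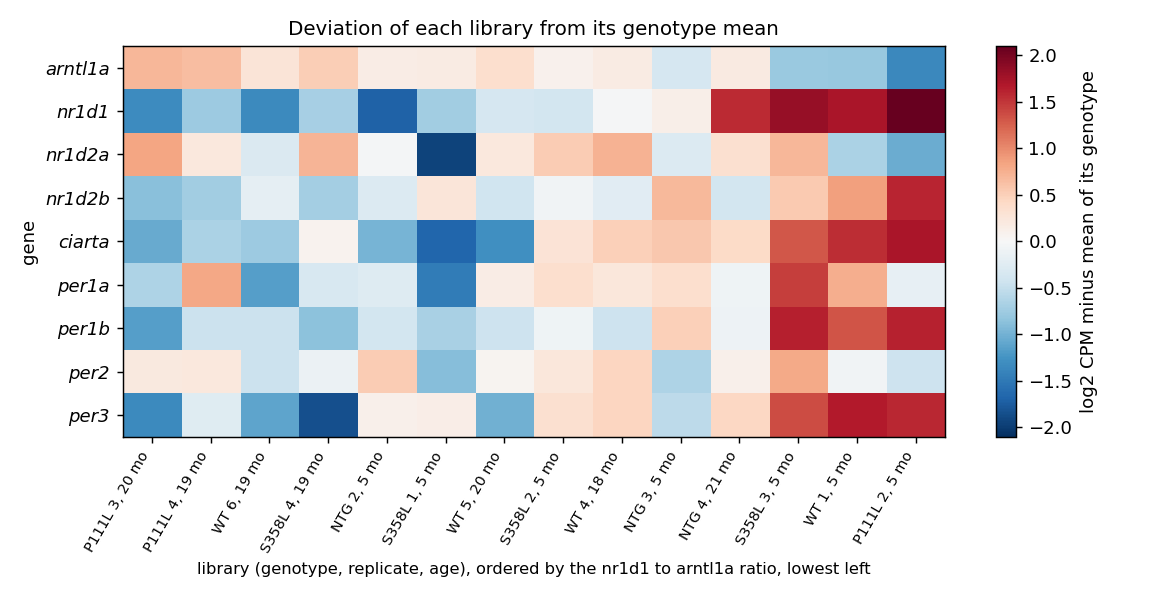
Deviation of log2 CPM from the mean of the own genotype (colour, red higher and blue lower) for the 9 tested members (rows) in the 14 libraries (columns, with replicate number and age in months), ordered by the log2 ratio of nr1d1 to arntl1a from -4.35 at the left to 1.099 at the right. The turn of arntl1a to blue and of nr1d1 to red towards the right follows from this ordering and is no separate result. Of the other members nr1d2b, ciarta, per1b and per3 mostly turn red as well, whereas per2 and nr1d2a show no such order. In NTG replicate 4 arntl1a (0.19), nr1d2b (-0.39) and per1b (-0.11) went the other way, while per3 (0.44) and ciarta (0.41) did not.

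Across the 14 libraries log2 CPM of arntl1a was correlated with every other tested gene, a calculation added after the levels had been seen. No gene passed at an adjusted permutation p under 0.05 (percentage called 0.0, smallest adjusted p 0.112 over 17436 genes), and 1540 genes (8.83%) had an unadjusted p under 0.05. Of the 8 other tested members 5 were among the latter, all 5 with a negative sign, beside 4.32% of all genes. The strongest was per1b, with Pearson's r of -0.889 (permutation p = 5e-05, adjusted 0.112) and Spearman's rho of -0.886 (p = 5e-05, adjusted 0.145), followed by nr1d2b with r of -0.835 (p = 0.00016, adjusted 0.127) and rho of -0.829 (p = 0.00037, adjusted 0.201). Without the 2 libraries farthest from the median of arntl1a, TMEM43-P111L replicate 2 and TMEM43-WT replicate 1, r was -0.894 for per1b and -0.837 for nr1d2b.

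For nr1d1 r was -0.772 (permutation p = 0.00141, adjusted 0.226) and rho -0.727 (p = 0.00454, adjusted 0.347), for ciarta r was -0.766 (p = 0.00115, adjusted 0.216) and rho -0.807 (p = 0.00092, adjusted 0.245), and for per3 r was -0.728 (p = 0.00308, adjusted 0.286) and rho -0.833 (p = 0.00043, adjusted 0.207). Without the same 2 libraries r was -0.721 for nr1d1, -0.731 for ciarta and -0.686 for per3. The sign was negative within both age groups for these 5 genes: over the 7 libraries of 5 months r was between -0.841 (nr1d1) and -0.600 (per3), and over the 7 of 18 to 21 months between -0.788 (nr1d2b) and -0.569 (ciarta). After subtraction of genotype means it lay between -0.963 (nr1d2b) and -0.798 (per3). After subtraction of the means of the age groups r was weaker for all 5 than without it. It was then -0.798 for per1b, -0.734 for nr1d1, -0.715 for ciarta, -0.697 for nr1d2b and -0.486 for per3. For per1a (r = -0.274, rho = -0.314), per2 (r = 0.167, rho = 0.0154) and nr1d2a (r = 0.307, rho = 0.0198) the unadjusted permutation p-values of r were 0.340, 0.566 and 0.285 and those of rho 0.273, 0.964 and 0.952.

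**Figure D3:**
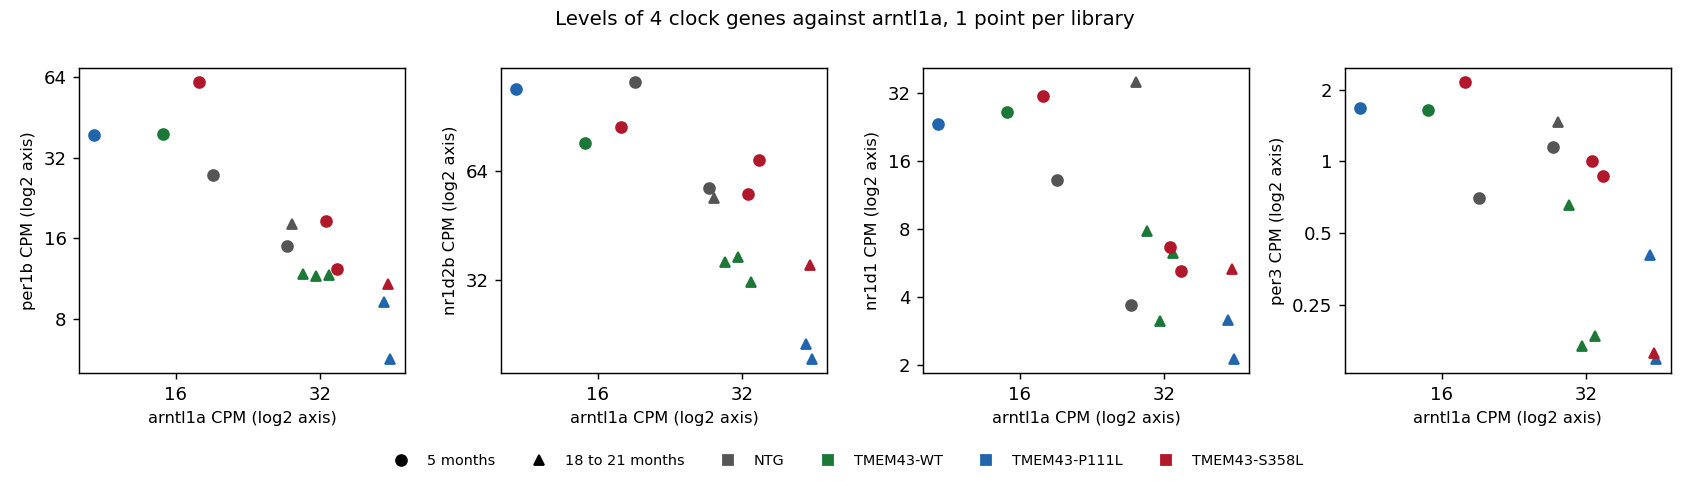
CPM of per1b, nr1d2b, nr1d1 and per3 (log2 axes) against CPM of arntl1a (log2 axis), with 1 point per library, coloured by genotype and shaped by age. All 4 genes fall as arntl1a rises from 10.8 to 44.8 CPM (r = -0.889, -0.835, -0.772 and -0.728), and NTG replicate 4 with 35.8 CPM of nr1d1 lies off that trend.

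Other measures moved with some of the 4 libraries of lowest arntl1a, but not with all. TMEM43-WT replicate 1 and TMEM43-S358L replicate 3 had the lowest TMM factors (0.824 and 0.872, against 0.935 to 1.14 in the others), which scale each library for its composition. TMEM43-P111L replicate 2 and NTG replicate 3 had factors of 1.12 and 1.04. The summed level of 11 of 11 heat shock genes, which respond to handling and temperature, was highest in TMEM43-WT replicate 1 and TMEM43-S358L replicate 3. It was 11504 and 11257 CPM there, followed by TMEM43-P111L replicate 2 with 9701 CPM, against 4927 to 8575 CPM elsewhere. NTG replicate 3, at 6318 CPM, lay within that last range. Log2 CPM of 10 of these 11 genes was negatively correlated with arntl1a (median r = -0.63, 0 past the threshold). The 15 tested immediate early genes summed to 933 CPM in TMEM43-WT replicate 1 and 1479 CPM in TMEM43-S358L replicate 3. Both values lay within the range of 330 to 1987 CPM of the others. By gene, 12 of these 15 were negatively correlated with arntl1a as well (median r = -0.42, 0 past the threshold). No tested gene of any kind passed that threshold. The share of all tested genes with a negative r is not given here, so neither count measures an excess. The part of library composition or of handling in the clock gene levels was not tested.

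Whether TMEM43 or its variants altered the clock was asked by comparing each line with NTG and the lines with each other. In none of the 6 comparisons did a clock gene pass the test (edgeR quasi-likelihood test, adjusted p under 0.05 over 17437 genes): 0 of 9 tested members were called, 0 had an unadjusted p under 0.05, and DESeq2 called 0. Of all tested genes 8.34% were called in TMEM43-WT against NTG, 7.59% in TMEM43-P111L against NTG and 6.15% in TMEM43-S358L against NTG, and 0.826%, 1.62% and 1.04% in TMEM43-P111L against TMEM43-WT, TMEM43-S358L against TMEM43-WT and TMEM43-S358L against TMEM43-P111L. In the same order an unadjusted p under 0.05 was reached by 24.7%, 23.6%, 22.6%, 10.2%, 12.4% and 9.57% of them. These shares rest in part on single libraries. In TMEM43-WT against NTG the calls over all genes went from 1454 to 743 without NTG replicate 3. Those in TMEM43-P111L went from 1324 to 518 without its replicate 4, and those in TMEM43-S358L from 1073 to 503 without NTG replicate 3. Libraries of 5 months only leave 1 library in TMEM43-WT and in TMEM43-P111L, so a fit to them cannot show which calls hold at that age. The smallest adjusted p of a member in these 6 comparisons was 0.342, 0.311, 0.255, 0.692, 0.503 and 0.588. This does not show that genotypes were alike, because the spread between pools was wide: nr1d1 was at 17.5 ± 16.5 CPM (SD, n = 3) in NTG, 10.9 ± 10.6 CPM (n = 4) in TMEM43-WT, 9.49 ± 11.9 CPM (n = 3) in TMEM43-P111L and 12.002 ± 12.6 CPM (n = 4) in TMEM43-S358L, and the 95% interval of its log2 fold change in TMEM43-WT against NTG reached from -2.99 to 1.599.

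Among the comparisons with NTG the smallest adjusted p belonged to per2 in TMEM43-S358L, at 149.2 ± 68.6 CPM (SD, n = 4) against 91.3 ± 35.4 CPM (n = 3), a log2 fold change of 0.71 (SE 0.36, 95% interval -0.05 to 1.47, edgeR adjusted p = 0.255), which ranged from 0.39 (without TMEM43-S358L replicate 3) to 1.03 (without NTG replicate 2) when single libraries were left out. The log2 fold change of arntl1a against NTG was 0.14 for TMEM43-WT, 0.41 for TMEM43-P111L and 0.39 for TMEM43-S358L, with intervals from -0.76 to 1.04, from -0.55 to 1.37 and from -0.51 to 1.29. nr1d2a was the only member whose levels did not overlap between groups in any genotype comparison, at 52.4 ± 29.7 CPM (n = 3) in TMEM43-P111L and 108.0 ± 23.8 CPM (n = 3) in NTG, with a log2 fold change of -1.04 (SE 0.59, edgeR adjusted p = 0.311). Such separation was seen for 27.1% of all tested genes in that comparison, and in the other 5 comparisons, where no member showed it, for 21.8% (TMEM43-WT against NTG), 19.2% (TMEM43-S358L against NTG), 10.9% (TMEM43-P111L against TMEM43-WT), 8.8% (TMEM43-S358L against TMEM43-WT) and 9.79% (TMEM43-S358L against TMEM43-P111L). Among the lines, per1a showed the largest difference, with a log2 fold change of 1.21 (SE 0.64, edgeR adjusted p = 0.588) in TMEM43-S358L against TMEM43-P111L, and of 0.51 without TMEM43-S358L replicate 3 and 1.80 without TMEM43-P111L replicate 4. Without TMEM43-P111L replicate 2, the library with the lowest arntl1a, 1 member passed in TMEM43-P111L against NTG: nr1d2b, with 19.3 and 21.3 CPM against 53.9 to 112.8 CPM in NTG (log2 fold change -1.88, SE 0.46, edgeR adjusted p = 0.0388), beside 3.95% of all genes called in that fit. The TMEM43-P111L libraries that are left were of 20 and 19 months, while NTG replicates 2 and 3 were of 5 months, so genotype and age cannot be told apart there.

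Libraries of 18 to 21 months were then compared with those of 5 months, with genotype in the fit. Of the 9 tested members only nr1d2b passed and was lower in the older fish, at 33.4 ± 11.5 CPM (SD, n = 7) against 80.5 ± 22.8 CPM (n = 7), a log2 fold change of -1.29 (SE 0.23, 95% interval -1.78 to -0.80, edgeR adjusted p = 0.0256). Its levels ran from 19.3 over a median of 35.2 to 53.9 CPM in the older libraries and from 55.2 over 76.4 to 112.8 CPM in the younger ones, without overlap, which held for 0.74% of all tested genes. Of all tested genes 0.969% were called in either direction and 0.556% were called lower in the older fish. The 169 calls behind these shares fell to 1 without TMEM43-S358L replicate 4, 4 without TMEM43-P111L replicate 2, 21 without TMEM43-P111L replicate 4 and 29 without TMEM43-WT replicate 1, and rose to 324 without NTG replicate 2. That of nr1d2b was lost without TMEM43-P111L replicate 2 (log2 fold change -0.94), TMEM43-P111L replicate 3 (-1.18), TMEM43-P111L replicate 4 (-1.20), TMEM43-S358L replicate 4 (-1.40) or TMEM43-WT replicate 1 (-1.34), with adjusted p between 0.0511 and 0.101, and without the 2 libraries of lowest TMM factor (-1.30, adjusted p = 0.120).

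Of the remaining members, 4 had an unadjusted p under 0.05 that did not hold after adjustment, so that 5 of 9 were under this level beside 13.5% of all tested genes. Heat shock genes (5 of 11 under this level, median log2 fold change -0.86, all 11 negative) and erythrocyte markers (2 of 5, median -0.86, all 5 negative) were lower in the older libraries by this measure as well, with 0 of either called, and of the fibroblast markers postnb was called lower (-1.57, edgeR adjusted p = 0.0222). The part of handling or of cell composition in the clock gene values was not tested. arntl1a was at 36.4 ± 7.50 CPM (n = 7) in the older and 22.6 ± 9.20 CPM (n = 7) in the younger libraries, a log2 fold change of 0.97 (SE 0.24, edgeR adjusted p = 0.0769), with ranges of 28.0 to 44.8 and 10.8 to 34.7 CPM that overlapped. per1b was at 11.3 ± 3.74 against 30.5 ± 17.5 CPM, a log2 fold change of -1.47 (SE 0.39, edgeR adjusted p = 0.109), and per3 at 0.455 ± 0.484 against 1.31 ± 0.523 CPM, a log2 fold change of -1.66 (SE 0.56, edgeR adjusted p = 0.200). nr1d2a had the opposite sign to nr1d2b, with a log2 fold change of 0.89 (SE 0.39, edgeR adjusted p = 0.345). DESeq2 also called arntl1a and per1b, edgeR also called arntl1a without NTG replicate 2 (1.07, adjusted p = 0.0320), and it also called per3 without NTG replicate 4 (-2.58, adjusted p = 0.0482), the old library with high nr1d1. per2 differed by 0.11 (interval -0.51 to 0.74), at 121.6 ± 30.7 CPM in the older and 121.0 ± 63.8 CPM in the younger libraries. In bulk tissue, fewer cells of a type that express a gene and less RNA of it per cell cannot be told apart.

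**Figure D4:**
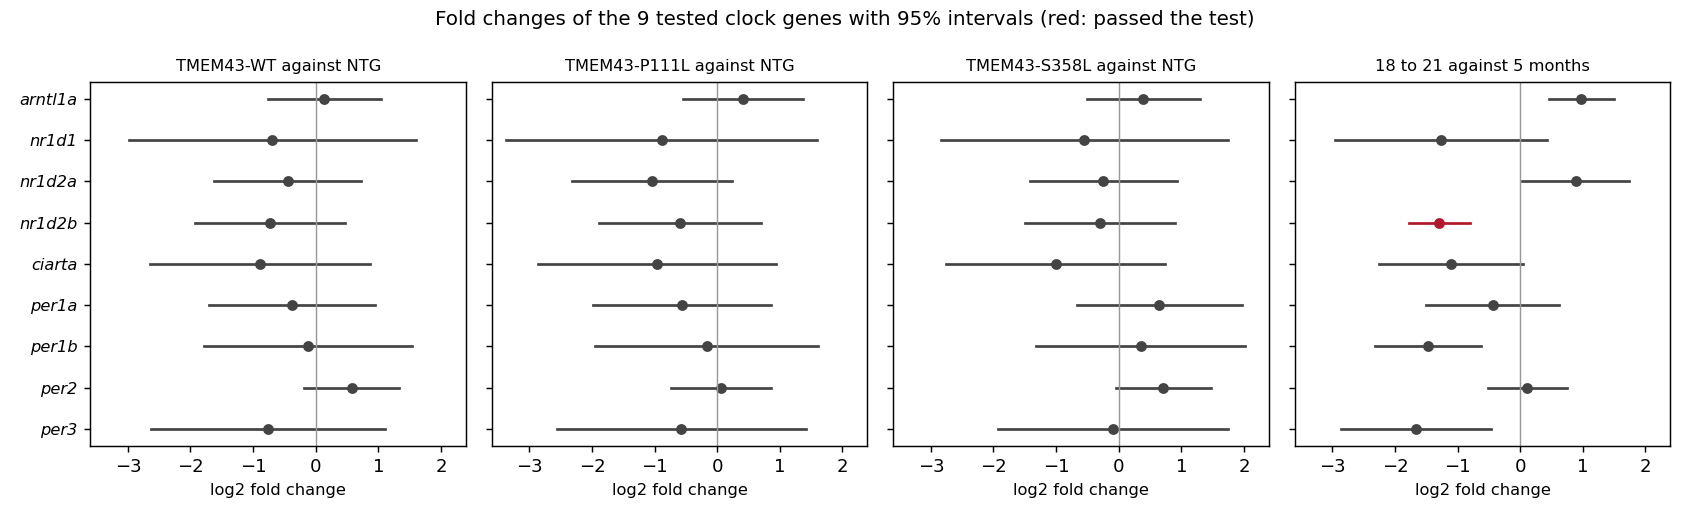
Log2 fold changes (points) with 95% intervals (lines) of the 9 tested clock genes in each transgenic line against NTG and in libraries of 18 to 21 months against those of 5 months, from the edgeR fit. In the panels against NTG every interval includes 0, and nr1d2b (red, -1.29) is the only gene that passed the test for age.

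The rest of the pathway was read from a list of 34 other core clock genes (activators, cry and bhlhe40/41 genes, Ror receptors, PAR bZIP and Nfil3 factors), of which 26 were tested. In TMEM43-WT against NTG 1 rose and 1 fell, in TMEM43-S358L against NTG 1 fell, and in the remaining 4 genotype comparisons and in the comparison of ages 0 were called. These counts are 7.69% and 3.85% of the list, no more than the 8.34% and 6.15% of all tested genes, and so are no result about the clock genes as a list. Markers of other cells also moved in the comparisons with NTG. Of 9 leukocyte markers 7 had an unadjusted p under 0.05 in TMEM43-WT, with all 9 fold changes positive. The leukocyte gene ptprc was called higher in all 3 lines, as were tcf21 (fibroblast and epicardium) and smtnl1 (atrium). ckmb (skeletal muscle) was called lower in all 3. In all but the atrium list other markers went the other way in some or all lines. Log2 fold changes of leukocyte markers ran from -1.49 to 1.42 in TMEM43-P111L and from -1.97 to 0.95 in TMEM43-S358L. Those of fibroblast and epicardium markers ran from -1.19 to 1.32, -1.51 to 1.26 and -1.08 to 1.12 (TMEM43-WT first, TMEM43-S358L last). Those of skeletal muscle markers ran from -4.27 to 2.65, -4.02 to 3.77 and -3.52 to 2.97. Of the smooth muscle and bulbus markers acta2 was called lower in TMEM43-P111L (-2.37, edgeR adjusted p = 0.00379) and cnn1b higher in TMEM43-WT and TMEM43-S358L. Log2 fold changes of this list ran from 0.40 to 2.47, -2.37 to 0.81 and -0.01 to 2.46. Its sum was 178 to 356 CPM in TMEM43-P111L, against 460 to 649 in NTG, 639 to 1053 in TMEM43-WT and 503 to 914 in TMEM43-S358L. The part of these markers in the calls below and in the member levels above was not tested. The activator arntl2, a paralog of arntl1a, rose in TMEM43-WT from 0.183, 0.279 and 0.544 CPM in NTG replicates 2, 3 and 4 to 1.42, 1.36, 1.57 and 1.59 CPM in TMEM43-WT replicates 1, 4, 5 and 6, a log2 fold change of 2.12 (SE 0.60, edgeR adjusted p = 0.0383). The groups did not overlap, as for 21.8% of all tested genes, and the call was lost without any one of 6 libraries (NTG replicates 2 or 3 or any TMEM43-WT library, adjusted p up to 0.127). Few reads lie behind the NTG levels of arntl2. In the comparison of ages arntl2 was higher in the older libraries but not called (log2 fold change 1.03, SE 0.35, edgeR adjusted p = 0.208). tefa, which encodes a PAR bZIP activator that binds D-boxes and is light-inducible in zebrafish, fell in TMEM43-WT and in TMEM43-S358L. It was at 77.2, 133.6 and 69.1 CPM in NTG replicates 2, 3 and 4, at 58.6, 28.4, 25.1 and 36.7 CPM in TMEM43-WT replicates 1, 4, 5 and 6 and at 28.8, 35.8, 39.8 and 33.4 CPM in TMEM43-S358L replicates 1 to 4. The log2 fold changes were -1.33 (SE 0.37, edgeR adjusted p = 0.0413) and -1.44 (SE 0.37, edgeR adjusted p = 0.0369), and neither line overlapped with NTG, with which both were compared, as for 21.8% and 19.2% of all tested genes. The first call was lost without any one of 7 libraries (adjusted p up to 0.177) and the second without any one of 6 (up to 0.162), NTG replicates 2 and 3 among both. In the comparison of ages tefa was lower in the older libraries but not called (log2 fold change -0.77, SE 0.20, edgeR adjusted p = 0.0819). TMEM43-WT replicate 1 was the only library of 5 months in its line, while NTG replicates 2 and 3 were of that age. The main genotype fit held no term for age, so genotype and age are mixed in the TMEM43-WT calls of arntl2 and tefa. With age group as a covariate 1261 of 17437 genes were called in TMEM43-WT against NTG. The values of arntl2 and tefa in that fit are not given here.

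Of the listed clock genes that did not pass a test, 4 are named here after their values were seen, because they had the highest positive correlations with arntl1a. nfil3 and its paralogs nfil3-2 and nfil3-5 encode repressors that compete with PAR bZIP factors for D-boxes, and in mammals Nfil3 is repressed by the Nr1d receptors. The family did not move as a whole. For nfil3-6 r with arntl1a was -0.265 (rho = -0.398), and -0.657 without the 2 farthest libraries. For nfil3-3, near the floor at 0.340 CPM in the younger libraries, r was 0.310 and then -0.106. In the comparison of ages nfil3-6 had a log2 fold change of -0.13 (SE 0.33). nfil3-5 was at 1.98, 7.05, 17.0 and 27.3 CPM in the 4 libraries with the lowest arntl1a (TMEM43-P111L replicate 2, TMEM43-WT replicate 1, NTG replicate 3 and TMEM43-S358L replicate 3) and reached 182.4 CPM in TMEM43-S358L replicate 4. TMEM43-S358L replicate 1 went against this order, with 17.6 CPM of nfil3-5 and 40.0 CPM of cry1bb at 34.7 CPM of arntl1a. The correlation with arntl1a was 0.890 for nfil3, 0.889 for nfil3-2 and 0.871 for nfil3-5 (permutation p = 2e-05, 3e-05 and 9e-05, adjusted 0.112 for each), with rho of 0.873, 0.829 and 0.745 (permutation p = 0.0001, 0.00044 and 0.0033), and r was 0.805, 0.848 and 0.679 without the 2 farthest libraries. cry1bb, a cryptochrome of the repressing limb, went with arntl1a as well (r = 0.820, permutation p = 0.00016, adjusted 0.127, rho = 0.789, permutation p = 0.00135, and r = 0.752 without the 2 farthest libraries), from 31.7 CPM in TMEM43-WT replicate 1 to 122.8 CPM in TMEM43-P111L replicate 3, unlike the period genes per1b and per3. In the comparison of ages nfil3-5 had a log2 fold change of 3.47 (SE 0.73, edgeR adjusted p = 0.0523), at 144.7 ± 41.3 CPM (n = 7) in the older and 23.8 ± 23.0 CPM (n = 7) in the younger libraries.

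**Figure D5:**
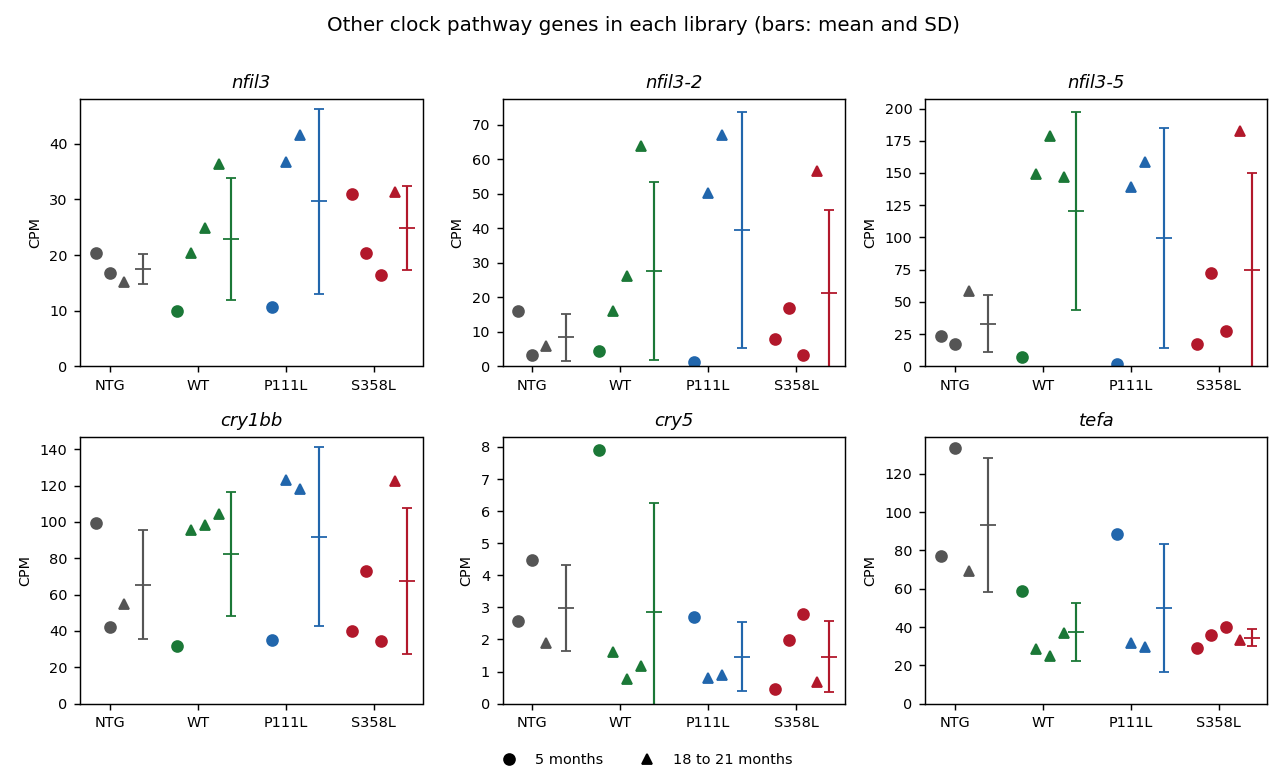
CPM (linear axes from 0) of nfil3, nfil3-2, nfil3-5, cry1bb, cry5 and tefa in each library, by genotype, with circles for 5 months, triangles for 18 to 21 months and the mean and SD of each group, drawn only above 0. nfil3-5 spans 1.98 to 182.4 CPM and is lowest in TMEM43-P111L replicate 2, and tefa is higher in NTG (69.1 to 133.6 CPM) than in TMEM43-S358L (28.8 to 39.8 CPM).

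Light-induced genes of zebrafish were followed through 8 tested genes. In the comparison of ages 2 of 8 fell, beside 0.556% of all tested genes called lower: cry5, the (6-4) photolyase, from 3.26 ± 2.37 CPM (n = 7) at 5 months to 1.11 ± 0.465 CPM (n = 7), a log2 fold change of -1.73 (SE 0.39, edgeR adjusted p = 0.0479), and ddb2, which recognises DNA damaged by ultraviolet light, from 12.3 ± 6.66 to 5.00 ± 3.54 CPM, a log2 fold change of -1.40 (SE 0.30, edgeR adjusted p = 0.0420). Both were highest in TMEM43-WT replicate 1, at 7.90 and 22.7 CPM. Both calls depended on nearly every library: that of cry5 held in 2 and that of ddb2 in 3 of 14 fits that each left out 1 library, with adjusted p up to 0.284 and 0.233 in the others. per2, which light induces as well, did not share this difference, as given above.

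Of 8 tested clock output genes, wee1, the kinase that holds cells before mitosis, rose in TMEM43-WT (16.1 ± 4.55 CPM, n = 4, against 7.53 ± 1.48 CPM, n = 3, in NTG, log2 fold change 1.095, SE 0.25, edgeR adjusted p = 0.0139) and in TMEM43-S358L (14.3 ± 2.41 CPM, n = 4, log2 fold change 0.93, SE 0.25, edgeR adjusted p = 0.0371). namptb, an enzyme of NAD synthesis, rose in TMEM43-P111L (6.89 ± 2.55 CPM, n = 3, against 1.92 ± 0.383 CPM, n = 3, log2 fold change 1.84, SE 0.40, edgeR adjusted p = 0.0131) and in TMEM43-S358L (7.18 ± 3.46 CPM, n = 4, log2 fold change 1.90, SE 0.38, edgeR adjusted p = 0.0102). These comparisons share the 3 NTG libraries, and the counts were 1 of 8 in TMEM43-WT, 1 of 8 in TMEM43-P111L and 2 of 8 in TMEM43-S358L, beside 8.34%, 7.59% and 6.15% of all tested genes. The call of namptb in TMEM43-S358L held without any single library, that in TMEM43-P111L was lost without NTG replicate 3 (adjusted p = 0.0501), that of wee1 in TMEM43-WT did not hold when NTG replicate 2 was left out (0.0595), and that of wee1 in TMEM43-S358L was lost without any one of 7 libraries (up to 0.111). tfr1a, a transferrin receptor, fell with age, from 95.9 ± 40.7 to 54.8 ± 17.5 CPM (n = 7 each, log2 fold change -1.16, SE 0.16, edgeR adjusted p = 0.0117), but this did not hold once TMEM43-P111L replicate 2 or TMEM43-S358L replicate 4 was left out (adjusted p up to 0.101). Glucocorticoids can shift peripheral clocks in mammals, and of 9 of their target genes 1 was called: tsc22d3 (Gilz) fell in TMEM43-P111L, at 167.7 ± 42.1 CPM (n = 3) against 363.4 ± 91.0 CPM (n = 3) in NTG, a log2 fold change of -1.12 (SE 0.31, edgeR adjusted p = 0.0398). This is 11.1% of the list beside 7.59% of all tested genes, and the call was lost without any one of 5 libraries (adjusted p up to 0.126). TMEM43-WT and TMEM43-P111L each had only 1 library of 5 months. Genotype and age are therefore mixed in their calls of wee1, namptb and tsc22d3 as well. For the same reason a fit to libraries of 5 months only cannot decide about the calls of these lines, arntl2 and tefa included. In that fit TMEM43-S358L replicates 1, 2 and 3 stood against NTG replicates 2 and 3. The TMEM43-S358L calls of tefa, wee1 and namptb did not hold there, but so few libraries do not show that they depend on age.

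Outside these lists, the genes whose centred log2 CPM profile over the 14 libraries was nearest to a member were determined by the mean absolute difference. Nearest to nr1d1, whose own profile deviated by 1.12 on average, were cyp2ad6, a cytochrome P450 gene (0.56), otud1, a deubiquitinase gene (0.62), and gadd45ga, a growth arrest and DNA damage gene (0.65). The members per1b (0.48), ciarta (0.63) and per3 (0.69) lay as near. For arntl1a, with a deviation of 0.47, the nearest were dennd2c (0.26), jmjd1cb (0.26) and ewsr1b (0.27), and for per2, with a deviation of 0.43, mylk2 (0.18), ldb1a (0.19) and map4k2 (0.22). The member nearest to arntl1a was per2, at rank 5277. Its difference of 0.61 was larger than the deviation of arntl1a itself (0.47), so the 2 profiles were not alike.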

How the data were processed

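RNA-seq reads of 14 libraries of pooled zebrafish ventricles (75 nt, single end, stranded mRNA kit) were processed by the authors, with Cutadapt 2.5 for trimming, STAR 2.7.2b for alignment to GRCz11, and summarised per gene with featureCounts 1.6.4. The deposited values are expected counts per gene, not scaled for depth or length; part of them are fractional, and how reads on several places and the strand were handled is not given in the sources used here. Counts were rounded and tested in R 4.3.3 with edgeR 4.0.16 (TMM, filterByExpr by genotype, robust quasi-likelihood test, genotype as a factor of 4 groups over all libraries, Benjamini-Hochberg adjustment over 17437 genes); calls needed an adjusted p below 0.05 with a log2 fold change of 0.05 or more in size. Age was divided at 12 months, with genotype as covariate. CPM use TMM-scaled library sizes and log2 CPM a prior count of 2. Correlations used 100000 two-sided permutations, and the smallest p they can give is 1e-05. The test was checked on simulated counts.

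Alternatives were DESeq2 1.42.0, RLE factors, other filters, a fold threshold of 0.5, each library left out, the replicate number as a block, whole counts only, age as a covariate or alone and only the 2 groups compared, and, added after seeing the data, libraries of 5 months only and dropping both libraries of lowest TMM factor. The members and gene lists were chosen with earlier results of these data known. The text names all members, up to 4 called genes per list and comparison, and the 3 unlisted genes (mean 5 CPM or more) nearest in profile to nr1d1, arntl1a and per2. Nothing says whether pools of a group shared fish or clutches, so p-values measure the spread between these libraries. Gene symbols are those of the table; cry3a, cry3b and ciartb were not analysed here. Intervals of counts of 0 cover counting error only.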

Additional observations from a re-analysis of the deposited data

Results flagged for a closer look

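In the lines with 4 libraries, 20 sets of values (a gene in TMEM43-WT or TMEM43-S358L) were searched for a library that lies far from the others, and 5 were found. The threshold marks about 1 in 20 sets of normally distributed values from like libraries. These CPM were not shown to be of that kind, so the count does not measure an excess. TMEM43-WT replicate 1 is also the only library of 5 months in its line, so its flags cannot be told apart from age. per1b stood at 39.46 CPM in TMEM43-WT replicate 1, against 11.54 to 11.74 CPM in the other 3, and at 61.52 CPM in TMEM43-S358L replicate 3, against 10.83 to 18.65 CPM. nr1d1 was at 30.89 CPM in TMEM43-S358L replicate 3, against 5.191 to 6.626 CPM. nr1d2b was at 76.42 CPM in TMEM43-WT replicate 1, against 31.49 to 36.92 CPM. In the opposite direction nr1d2a was at 18.91 CPM in TMEM43-S358L replicate 1, against 105.9 to 120.8 CPM. The sets are not independent, since 4 of the 5 come from the pair of libraries of lowest TMM factor, and what sets these libraries apart was not tested.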

How the results depend on the processing

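In the 6 genotype comparisons the count of called members stayed at 0 under every alternative, except in TMEM43-P111L against NTG, where leaving out single libraries gave 0 to 1 (nr1d2b without TMEM43-P111L replicate 2). For age, where 1 member was called, DESeq2 called 3 (arntl1a, nr1d2b and per1b), the fit with the replicate number as a block called 0, leaving out single libraries gave 0 to 2 and dropping both libraries of lowest TMM factor gave 0. The log2 fold change of nr1d2b kept its sign, between -2.40 and -0.94 over 22 alternatives, and those of arntl1a (0.66 to 1.80), per1b (-3.45 to -1.05) and per3 (-3.41 to -1.26) did so too. Replicate numbers did not pair the samples: deviations of same-numbered libraries correlated between -0.23 and 0.26 over 13 pairs, and 3 of 12 libraries correlated best with one of their own number. With the block, nr1d2b had a log2 fold change of -2.40 (edgeR adjusted p = 0.558), and over all genes the calls went from 1454 to 26 in TMEM43-WT against NTG, from 1324 to 658 in TMEM43-P111L, from 1073 to 432 in TMEM43-S358L and from 169 to 0 for age. DESeq2 called 2392, 2147, 1950 and 581 there. With 1 library left out these counts were 743 to 1566, 518 to 1402, 503 to 1195 and 1 to 324. The block left none of the calls for age (cry5, ddb2 and tfr1a included). Libraries with replicate numbers 1 and 2 were all of 5 months, and those with 4, 5 and 6 all of 18 to 21 months. Only number 3 held both ages, so the block and age can hardly be told apart. The loss of the calls for age under the block, that of nr1d2b included, therefore decides nothing about them. For per3, per1a and clocka, with medians of 18, 26.5 and 6 reads per library, depth limits what could be detected.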
